A study of Mus musculus with 8 samples.

Results

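The interleukin-1 ligand genes Il1a and Il1b, the antagonist gene Il1rn, the decoy receptor gene Il1r2 and the co-receptor gene Il1rap were followed through leukocytes of arthritic mouse paw joints. These 5 genes were taken by name as members of the interleukin-1 system, and each was present in both unique molecular identifier (UMI) tables, 5 of 28434 gene rows. All 5 had UMIs in the cells kept, and all 5 passed the filter on low counts in neutrophils. In the set of macrophage-like and monocyte-like cells 3 passed, Il1b, Il1rn and Il1r2.

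CD45+ leukocytes were sorted from the paw joints of C57BL/6 mice and profiled by droplet single cell RNA sequencing with a 3′ kit, in which each captured transcript carries a UMI and is counted once. All mice were 10 weeks old and had received K/BxN serum, whose antibodies inflame the joints, with injections at days 0, 2 and 9. They were then given, at day 12, bone marrow-derived monocytes taken from other arthritic mice. These had been incubated for 90 min with vehicle in the Mono group (4 mice) or with 1 nM MCTR3, a lipid mediator, in the Mono+MCTR3 group (4 mice). Joints were collected on day 22. The paper's methods describe a membrane dye for transferred monocytes, while its account of the sequencing experiment names none. The UMI tables hold no mark of transferred cells, so transferred and host cells were not told apart. No group without transferred monocytes was analysed here.

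Interleukin-1α and interleukin-1β bind the receptor IL1R1, which then recruits the co-receptor IL1RAP and signals through MyD88 to NF-kappaB. The antagonist IL1RN occupies the receptor without recruiting the co-receptor. IL1R2 binds interleukin-1β but has too short a cytoplasmic tail to signal, and so acts as a decoy on the cell surface and, once shed, in fluid. Interleukin-1β is made as a precursor that caspase-1 or neutrophil proteases cleave, so transcript levels do not give the amount of active cytokine. In K/BxN serum arthritis neutrophils are a recognised source of interleukin-1.

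Cells were kept when they held 250 to 3000 genes, no fewer than 500 UMIs and no more than 5% of UMIs from mitochondrial genes. This left 10256 of 10538 barcodes, with 5241 from Mono and 5015 from Mono+MCTR3 joints. Mice, numbered by barcode suffix, held 1731045 to 6009009 UMIs with medians of 1685.5 to 2428 UMIs per cell. Mice within a group had 0 to 8 barcode sequences in common. Clustering that left the interleukin-1 family genes out gave 15 clusters. Of these, 6 were neutrophil-like (6977 cells, 68.0% of the cells and 59.4% of the UMIs), and their markers set apart an early precursor stage with cell cycle genes (411 cells), a secondary granule stage (626), a stefin-high stage (1933), a quiescent mature stage (2275), an interferon response stage (229) and an inflammatory stage (1503). The set called monocyte-derived macrophages (MDM, 351 cells) joined a macrophage-like cluster led by F13a1, Ms4a6c and C1qb (304 cells) and a nonclassical-monocyte-like cluster led by Ear2 and Eno3 (47 cells). Among the leading genes of the macrophage-like cluster, F13a1, Ms4a6c, S100a4 and Fn1 are on the classical monocyte list and C1qa, C1qb and C1qc on the macrophage list. The naming counted these lists as 1 class, so MDM are a mixed set of monocyte-like and macrophage-like cells. The lymphoid clusters were B-cell-like (769 cells), T-cell-like (764), NK-like (633) and a cluster led by Ighd and Fcer2a that the marker rule left unnamed (638). The smallest were like plasmacytoid dendritic cells (77), mast cells or basophils (27) and fibroblasts (20). The CD45+ sort removed most stromal cells before sequencing.

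The 250 bases before the start of Il1b, Il1rn and Il1r2 are shown because the mean levels of these 3 genes increased together over the neutrophil stages described next. They come from the RefSeq annotation of GRCm38.p6, 5′ to 3′ on the strand of the gene. Il1b lies on chromosome 2 (129364570 to 129371139, minus strand, GENCODE coordinates of GRCm38) and Il1rn on the same chromosome (24336853 to 24351494, plus strand), whereas Il1r2 lies on chromosome 1 (40074079 to 40125231, plus strand). The windows are chr2:129371140-129371389 for Il1b, chr2:24345121-24345370 for the most downstream of 3 RefSeq starts of Il1rn, and chr1:40085843-40086092 for Il1r2, whose RefSeq start is inside the GENCODE gene. Capitals mark matches to motifs searched on both strands.
Il1b: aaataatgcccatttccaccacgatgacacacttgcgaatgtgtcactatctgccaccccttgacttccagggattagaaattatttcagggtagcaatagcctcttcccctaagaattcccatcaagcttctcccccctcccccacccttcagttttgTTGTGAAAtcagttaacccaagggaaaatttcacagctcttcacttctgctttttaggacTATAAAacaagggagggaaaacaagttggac
Il1rn: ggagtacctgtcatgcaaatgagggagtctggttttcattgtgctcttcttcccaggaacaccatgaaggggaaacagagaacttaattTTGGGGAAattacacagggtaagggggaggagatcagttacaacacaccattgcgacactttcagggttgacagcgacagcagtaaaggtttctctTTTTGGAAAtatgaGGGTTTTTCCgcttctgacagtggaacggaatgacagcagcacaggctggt
Il1r2: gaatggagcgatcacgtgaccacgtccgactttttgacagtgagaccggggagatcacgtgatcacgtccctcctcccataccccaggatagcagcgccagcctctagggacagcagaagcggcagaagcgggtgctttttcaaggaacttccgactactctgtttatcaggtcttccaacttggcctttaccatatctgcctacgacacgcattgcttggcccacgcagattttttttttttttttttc
The Il1b window held a C/EBP-type match (TTNCNNAA, on the opposite strand, 91 to 84 bases before the start) and a TATA-type match (TATAAA, 31 to 26 bases before it). The Il1rn window held an NF-kappaB-type match (GGG and CC with 5 bases of any kind between them, 51 to 42 bases before the start) and 3 C/EBP-type matches, of which 2 overlap. No letters of the 5 motifs searched, which included GAGGAA for PU.1 and TGANTCA for AP-1, were in the Il1r2 window. Matches of this kind are common. Of 32851 promoter windows of this length, 45.8% held the NF-kappaB-type letters, 36.8% the C/EBP-type, 23.3% the PU.1-type, 12.4% the TATA-type and 6.75% the AP-1-type.

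Il1b was carried above all by neutrophils, which held 91.5% of its 46746 UMIs, and its mean level increased from the early precursor to the inflammatory stage. MDM, with 6.58% of the UMIs, were the second source. Levels are given as CPM, the UMIs of a gene divided by all UMIs of that class in that mouse and scaled to 1000000, and each captured molecule counts once whatever its length. A level is thus relative to a total that shrank over the stages. Median UMIs per cell were 6321 in early precursor, 3833 in secondary granule and 2191 in stefin-high cells. In quiescent mature, interferon response and inflammatory cells they were 1453, 1373 and 1292. Mean Il1b levels over mice were 102 ± 65.2 CPM in the early precursor stage, 493 ± 112 in the secondary granule stage and 2320 ± 432 in the stefin-high stage (SD, n = 8 mice). They went on to 4555 ± 895 CPM in the quiescent mature, 5807 ± 2175 in the interferon response and 6556 ± 1189 in the inflammatory stage (SD, n = 8). The step from stefin-high to quiescent mature neutrophils was upward in 8 of 8 mice, by 0.97 on the log2 scale with 10 CPM added to each level (exact sign-flip permutation test, two-sided, adjusted p = 0.0293 over 30 pairs of neighbours in the order of levels). Neither of the next 2 steps passed (inflammatory against interferon response, exact adjusted p = 0.234; interferon response against quiescent mature, 0.221), and inflammatory against quiescent mature, which are not neighbours, was not tested.

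MDM stood between the stefin-high and the secondary granule stage, at 1358 ± 422 CPM of Il1b (SD, n = 6 mice with at least 10 MDM). Both steps went 1 way in 6 of 6 mice, but 6 mice cannot give an exact p under 0.03125, and the adjusted p was 0.0670 for both. Within MDM the macrophage-like cluster held 1335 CPM and the nonclassical-monocyte-like cluster 2527 CPM over all mice pooled, the latter from 47 cells and 349 UMIs. Il1b was unevenly spread over MDM, which are a mixed set. The 35 MDM with most Il1b, of 351, held 63.9% of its UMIs, against 38.5% in the 697 neutrophils with most Il1b, of 6977. A further 154 Il1b UMIs came from the 27 mast-cell-or-basophil-like cells (1547 CPM pooled).

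**Figure D1:**
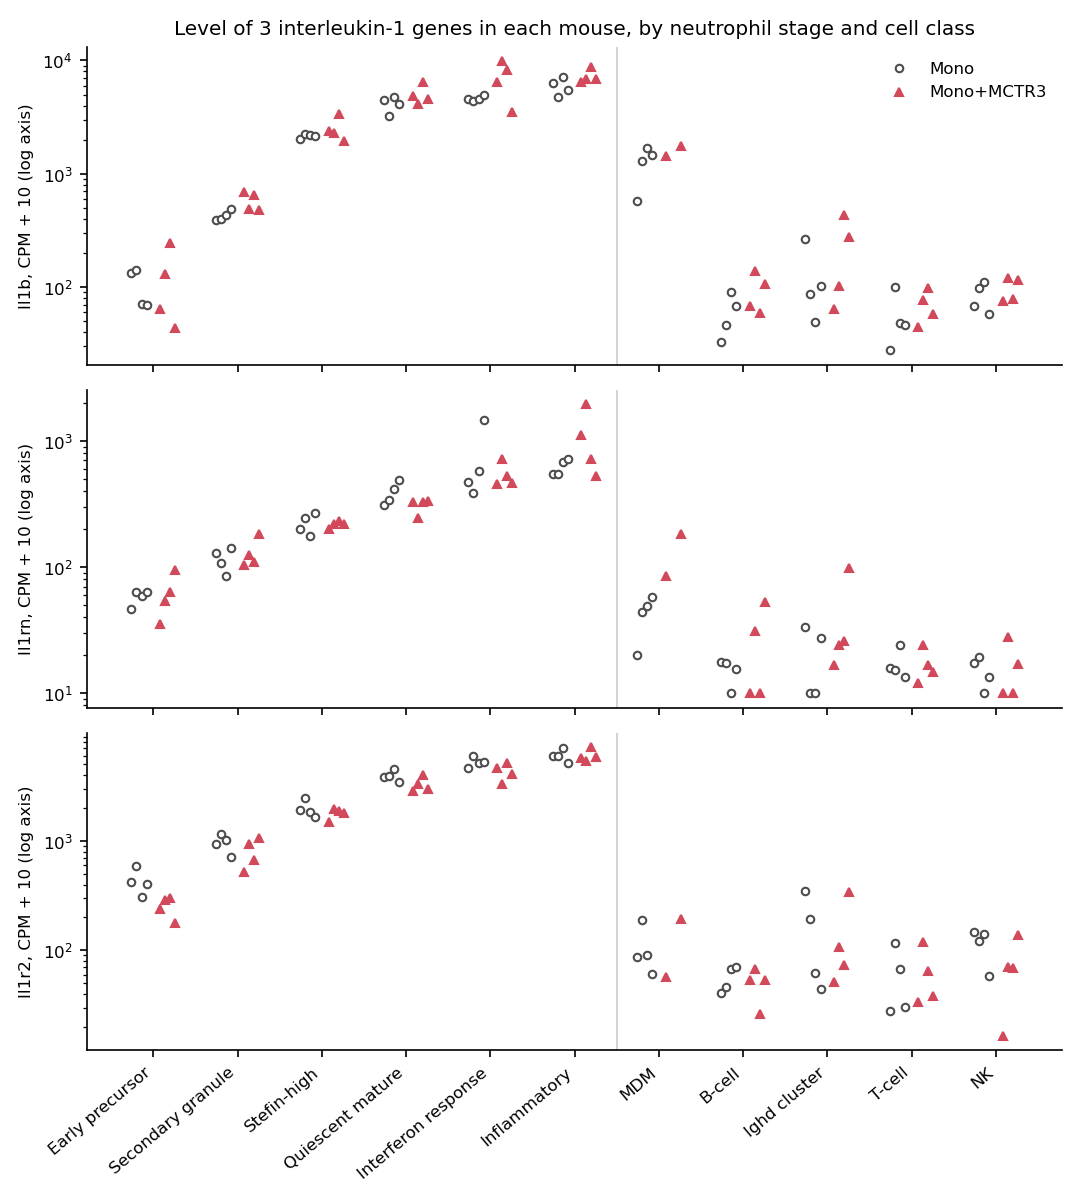
Level of Il1b, Il1rn and Il1r2 (CPM + 10, log axis) in each mouse by neutrophil stage and cell class, with open circles for Mono and triangles for Mono+MCTR3, where a mouse is shown if it has at least 10 cells of the class. Mean levels of all 3 genes climb from the early precursor to the inflammatory stage. In MDM the mean is 1358 CPM for Il1b (mice from 567 to 1731), 63.0 for Il1rn (9.94 to 172) and 103 for Il1r2 (47.0 to 184).

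The antagonist gene Il1rn and the decoy receptor gene Il1r2 climbed in CPM over the same stages. Il1rn had 4597 UMIs, 94.7% of them in neutrophils and 3.61% in MDM. Its mean level was 50.0 ± 16.95 CPM in the early precursor, 113 ± 29.6 in the secondary granule, 210 ± 28.7 in the stefin-high and 340 ± 73.5 in the quiescent mature stage (SD, n = 8). It reached 624.8 ± 351 CPM in the interferon response and 838 ± 484 in the inflammatory stage (SD, n = 8). Each of the steps of Il1rn from secondary granule to stefin-high, to quiescent mature and to interferon response neutrophils was upward in 8 of 8 mice (exact adjusted p = 0.0293 each), and the last pair of stages did not differ (exact adjusted p = 0.279). The share of cells with an Il1rn UMI, at each stage's own depth, changed less. It was 20.9% in early precursor, 31.0% in secondary granule and 34.4% in stefin-high cells. In quiescent mature, interferon response and inflammatory cells it was 34.4%, 41.5% and 46.9%.

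Il1r2 had 39401 UMIs, of which 97.8% lay in neutrophils and 0.589% in MDM. It was at 332 ± 129 CPM in the early precursor, 868 ± 220 in the secondary granule, 1869 ± 292 in the stefin-high and 3618 ± 564 in the quiescent mature stage (SD, n = 8). Il1r2 then stood at 4759 ± 801 CPM in the interferon response and 6021 ± 735 in the inflammatory stage (SD, n = 8). The first 3 of these steps were upward in 8 of 8 mice (exact adjusted p = 0.0293) and the step to the interferon response stage in 7 of 8 (0.0469), whereas the inflammatory and interferon response stages did not pass (0.0670). MDM held only 103 ± 62.7 CPM of Il1r2 and 63.0 ± 57.4 CPM of Il1rn (SD, n = 6). The 20 fibroblast-like cells held 31 Il1r2 UMIs (258 CPM).

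Lymphoid cells held low levels of all 3 genes. Mean Il1b levels were 52.4 to 163 CPM in the 4 lymphoid clusters, Il1r2 levels 43.4 to 143 CPM and Il1rn levels 5.60 to 20.7 CPM (n = 8 mice). With each cell thinned to 1000 UMIs, the share of cells with an Il1b UMI was 71.5% in neutrophils, 41.3% in MDM and 3.82% to 6.00% in lymphoid clusters. Before thinning it was 81.1%, 63.0% and 10.9% to 12.5%, at median depths of 1723, 6349 and 2214 to 3568 UMIs per cell. Relative to S100a8, an abundant neutrophil transcript, T-cell-like cells held 17.7 and B-cell-like cells 33.0 Il1b UMIs per 1000 S100a8 UMIs, the lowest and highest of the lymphoid clusters, against 16.5 in neutrophils and 623 in MDM. For Il1rn the lymphoid clusters held 2.23 to 4.75 against 1.68 in neutrophils, and for Il1r2 18.4 to 27.2 against 14.9. All lymphoid values were thus above those of all neutrophils pooled, but the pooled value joins stages that differed widely. Inflammatory cells held 13157 Il1b, 1662 Il1rn and 12678 Il1r2 UMIs against 138730 of S100a8. Early precursors held 319, 129 and 913 against 539701. The lymphoid values were not compared with single stages, and whether these UMIs were free RNA or expression was not tested. The early precursor stage held Il1b at a level that did not differ from its neighbours in the order, the Ighd-led cluster (exact adjusted p = 0.430) and NK cells (0.775). For Il1rn the early precursor stage was above the Ighd-led cluster (7 of 8 mice, exact adjusted p = 0.0469), and MDM against early precursors did not pass (0.887). Il1r2 in MDM lay within the lymphoid range, and neither the step to the Ighd-led cluster (exact adjusted p = 0.969) nor that to NK-like cells (0.430) passed.

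The remaining members were sparse. Il1a, on chromosome 2 (129299610 to 129309972, minus strand), had 125 UMIs, 109 in neutrophils and 12 in MDM, and 69 of them were in the inflammatory stage. There Il1a was at 35.4 ± 34.4 CPM (SD, n = 8), with mice from 4.38 to 101 CPM. T-cell-like and NK-like cells held 0 Il1a UMIs, which allows up to 1.09 and 1.75 CPM at 3 counts. Il1rap (chromosome 16, 26581704 to 26730117, plus strand) had 229 UMIs, 191 in neutrophils, and its level was 36.9 ± 32.0 CPM in the inflammatory stage and 14.3 ± 3.98 CPM in the quiescent mature stage (SD, n = 8). The signalling receptor gene Il1r1 (chromosome 1, 40225080 to 40317257, plus strand) had 24 UMIs in all. Neutrophils held 1 of them in 6977 cells, T-cell-like cells 9, and the 20 fibroblast-like cells 8. These limits cover counting error only.

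Some genes followed the same pattern over 12 classes and stages. The measure was Pearson's r of mean log2 levels among 4118 genes with at least 500 UMIs. The 6 neutrophil stages share libraries but not depth, with medians from 6321 UMIs per cell in early precursor to 1292 in inflammatory cells. The genes closest to Il1b were Sirpb1b (r = 0.982), Rnf149 (0.976), Ftl1 (0.974), Pofut2 (0.972) and Notch2 (0.969). For Il1rn they were the chemokine receptor gene Ccr1 (0.991), Il1r2 itself (0.970), Rabgef1 (0.968), Dmxl2 (0.967) and Clec4d (0.965). For Il1r2 they were Acod1, which encodes the enzyme that makes itaconate (0.993), the lamin gene Lmnb1 (0.989), the chemokine receptor gene Cxcr2 (0.986), Ankrd33b (0.983) and Rabgef1 (0.980). Il1b did not appear among the 5 closest genes of Il1rn or Il1r2.

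The balance of Il1b with its antagonist and its decoy changed between cell types and stages. It was measured as the ratio of UMI sums with 0.5 UMIs added to each, which is compared between sets of cells only, because capture can differ between transcripts. The log2 ratio of Il1b to Il1r2 was 3.74 higher in MDM than in neutrophils of the same mice and that of Il1b to Il1rn 1.58 higher, in 6 of 6 mice each (exact sign-flip p = 0.03125, the smallest that 6 mice allow, adjusted p = 0.0417 over 12). Il1r2 of MDM was at a lymphoid level, as given above, and the part of free RNA in this denominator was not tested. Without any 1 of the 6 mice the differences were 3.55 to 3.92 and 1.47 to 1.79, and 5 mice are too few to pass. Within neutrophils both ratios rose from early precursor to secondary granule and on to stefin-high cells. The rise of Il1b to Il1r2 was 1.01 and then 1.10 on the log2 scale, in 8 of 8 mice (exact adjusted p = 0.0234 each). That of Il1b to Il1rn was 1.26 in 7 of 8 mice and then 1.33 in 8 of 8 (exact adjusted p = 0.0312 and 0.0234). The first step of Il1b to Il1rn lay between 1.08 and 1.45 with any 1 mouse left out, and 5 of these 8 values no longer passed. From stefin-high to quiescent mature cells Il1b to Il1rn rose by 0.30 in 7 of 8 mice (exact adjusted p = 0.0469). From there the direction turned. To interferon response cells Il1b to Il1rn fell by 0.51 and was higher in only 1 of 8 mice (exact adjusted p = 0.0402). With 1 mouse left out, most values of these steps no longer passed, and Il1b to Il1r2 passed in neither (exact adjusted p = 0.883 and 0.699). From quiescent mature to inflammatory cells Il1b to Il1rn fell by 0.65 (SD 0.79, n = 8) and was lower in 8 of 8 mice (exact adjusted p = 0.0234). The size of this fall rested on few mice. It was -2.29 in Mono+MCTR3 mouse 2, -1.36 in mouse 1 and -0.70 in mouse 3 of that group, and -0.32 to -0.08 in the other 5 mice. Without Mono+MCTR3 mouse 2 the mean was -0.42 (exact adjusted p = 0.0312). Il1b to Il1r2 fell by 0.21 in 7 of 8 mice (exact adjusted p = 0.0312), and without any 1 mouse it lay between -0.25 and -0.16, with 5 of 8 such values no longer past the threshold.

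In neutrophils the ratio of Il1b to Il1r2 was higher in each of the 4 Mono+MCTR3 mice than in any of the 4 Mono mice, but the difference did not pass after adjustment. In Mono mice 1 to 4 the ratio was 1.03, 0.791, 0.991 and 1.10, and in Mono+MCTR3 mice 1.44, 1.12, 1.503 and 1.23. The lowest Mono+MCTR3 mouse was thus just above the highest Mono mouse. The mean log2 ratio of Mono mice was -0.04 ± 0.21 and that of Mono+MCTR3 mice 0.39 ± 0.20 (SD, n = 4 each), a difference of 0.44 (exact permutation test, two-sided, p = 0.0286, the smallest that 4 against 4 mice allow). Adjusted over both ratios the p was 0.0571. As background, the ratio of Il1b to each of 5484 other genes was formed in the same way, and 2.26% of these ratios did not overlap between the groups, 2.04% with the Mono+MCTR3 mice higher. Il1b to Il1rn was 11.3, 9.16, 10.7 and 7.34 in Mono and 9.79, 7.04, 15.6 and 11.7 in Mono+MCTR3, which overlap (log2 difference 0.16, exact p = 0.571).

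By stage, the log2 difference of Il1b to Il1r2 was positive in 6 of 6 stages, between 0.31 in the inflammatory and 0.80 in the interferon response stage. The groups did not overlap in quiescent mature cells (Mono 0.822 to 1.196, Mono+MCTR3 1.22 to 1.70) and in inflammatory cells (0.791 to 1.07 and 1.15 to 1.26). Non-overlap with Il1b was common in these stages, at 10.2% and 8.76% of all genes tested there, and no stage passed after adjustment (exact p = 0.0286, adjusted p = 0.20 over 14). The stages share the mice and so are not independent. The shares of the stages themselves did not differ beyond the spread between mice (inflammatory cells 24.8% ± 8.75 of Mono and 18.1% ± 6.80 of Mono+MCTR3 neutrophils, SD, n = 4 each, exact adjusted p = 0.571). With the quiescent mature and inflammatory stages alone, a choice made after the data were seen, the difference was 0.43. As a mean over the stages it was 0.58.

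**Figure D2:**
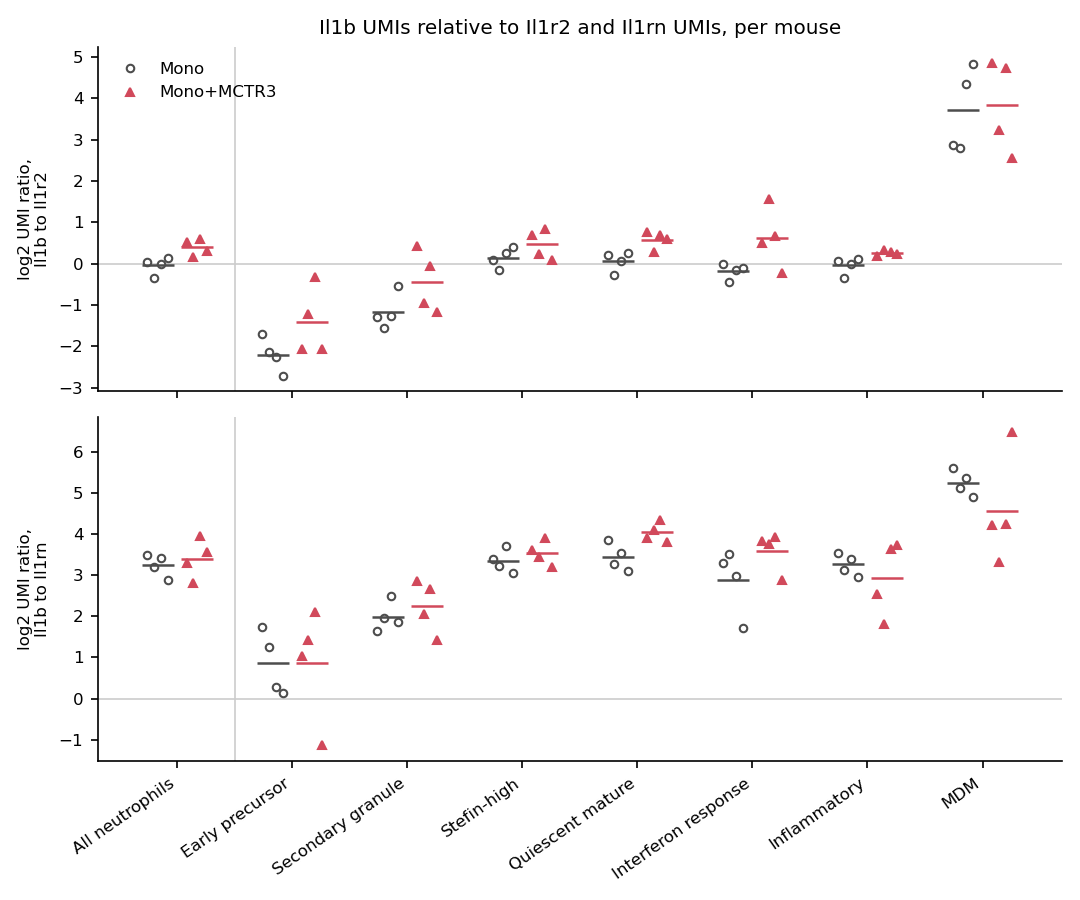
Log2 ratio of Il1b UMIs to Il1r2 UMIs (top) and to Il1rn UMIs (bottom) in each mouse for all neutrophils, each stage and MDM, with open circles for Mono, triangles for Mono+MCTR3 and short lines at the group means (n = 4). In all neutrophils the Il1b to Il1r2 groups sit apart at means of -0.04 and 0.39, and the MDM means lie above those of all neutrophils in both ratios.

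Within single neutrophils, an Il1r2 UMI was slightly more frequent in cells with than in cells without an Il1b UMI, as a mean over stages. Over the cells of all mice pooled, the numbers of UMIs did not rise together in the mature stages. Cells were thinned to 1000 UMIs, which left out 399 of 3557 Mono and 203 of 3420 Mono+MCTR3 neutrophils as shallower, and stages were kept apart. An Il1r2 UMI was seen in 73.5% of cells with and 69.3% of cells without an Il1b UMI (means over mice and stages). The difference within mice was 4.07 ± 3.45 percentage points (SD, n = 8), positive in 7 of 8 mice (exact sign-flip p = 0.0234, adjusted p = 0.0469 over 2 partners). This is the expected value over all ways of drawing 1000 UMIs. Single draws gave a positive difference in 20 of 20, from 1.58 to 6.62 points, and 11 of the 20 passed. The excess was 8.81 points in secondary granule and 6.14 in stefin-high cells, 7 of 8 mice each, and -1.79 and 1.54 points in quiescent mature and inflammatory cells, with 4 of 8 mice positive in each. Among cells without Il1b the shares with Il1r2 were 42.3%, 65.8%, 87.6% and 90.5% in these stages, in this order. The mature stages thus left little room for an excess. Spearman's rho between the Il1b and Il1r2 counts was taken over all cells of a stage in 1 draw, with mice and groups pooled. It was 0.13 in early precursor and 0.15 in secondary granule cells, and -0.00075 in stefin-high cells (200 to 1999 cells per stage). It was -0.19 in quiescent mature, -0.18 in interferon response and -0.18 in inflammatory cells. These are descriptions over cells that share libraries and a fixed total of UMIs. No rho was taken within mice, so differences between mice and groups enter these values. Without thinning the mean excess was 4.89 points, but deeper cells hold more of every gene.

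An excess was also seen with Il1f9, the gene of interleukin-36γ, where it was 3.05 ± 2.32 points (SD, n = 8), positive in 7 of 8 mice (exact unadjusted p = 0.0156). With Il1rn no excess was found. An Il1rn UMI was seen in 23.0% of cells with and 25.05% of cells without Il1b, a difference of -1.98 ± 3.41 points (SD, n = 8, exact p = 0.109), positive in 2 of 8 mice. In inflammatory cells the value was -10.7 ± 11.4 points, and 6 of 8 mice were negative (exact unadjusted p = 0.0391, 1 of 4 stages with all 8 mice). Few cells of this stage lacked Il1b, 7.48 to 29.3 per mouse as means over draws, against 87.6 to 284 with Il1b. The lowest values, -29.1 in Mono+MCTR3 mouse 2 and -23.0 in Mono mouse 1, rested on 13.4 and 7.48 cells without Il1b. Without thinning the stage gave -7.85 ± 14.1 points, with 3 of 8 mice positive (exact unadjusted p = 0.211). Thinning to 1500 UMIs turned the mean over stages to 2.22 points. That mean covers other cells, since only 1 mouse then had enough inflammatory cells with and without Il1b, against 8 at 1000 UMIs. Il1rn was also concentrated in few cells, as the 150 inflammatory cells with most Il1rn, of 1503, held 53.6% of its UMIs there, and the 35 MDM with most held 91.0% of the 166 UMIs in MDM.

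**Figure D3:**
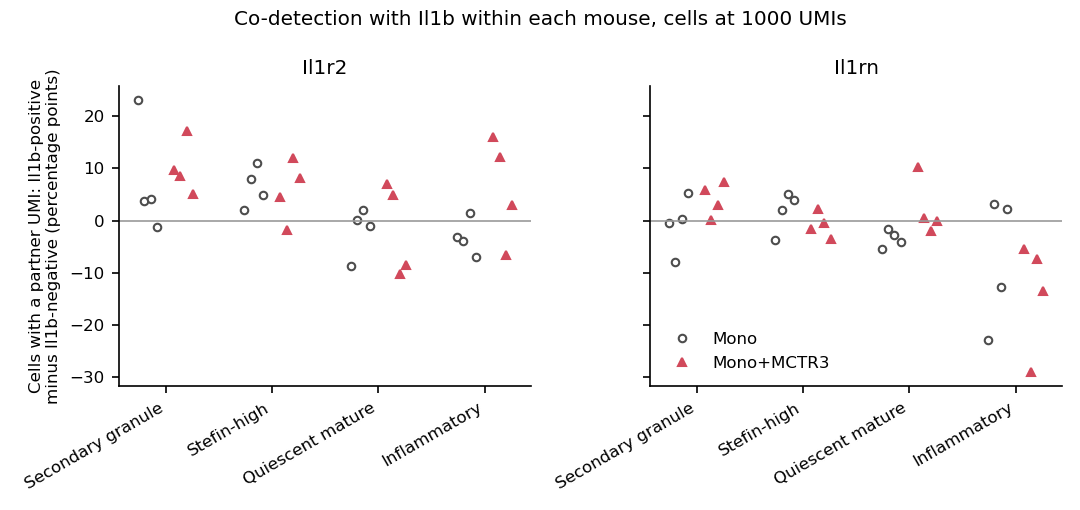
Share of neutrophils with an Il1r2 UMI (left) or an Il1rn UMI (right) among cells with an Il1b UMI minus that among cells without, in percentage points at 1000 UMIs per cell, for each mouse in the 4 stages that had both kinds of cell in 8 of 8 mice; circles are Mono and triangles Mono+MCTR3. Il1r2 points lie mostly above 0 in secondary granule and stefin-high cells, and Il1rn points in inflammatory cells mostly below 0.

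Between the groups, no member passed the test in neutrophils (edgeR quasi-likelihood, adjusted p under 0.05), where 0.0365% of 5485 genes did, 2 genes in all. The same 0 of 5 members passed with edgeR's likelihood ratio test and with DESeq2, and 0 of 5 had an unadjusted p under 0.05, as 2.5% of genes did with a higher and 2.32% with a lower level in Mono+MCTR3. Il1b was at 2558, 2961, 3199 and 2135 CPM in Mono mice 1 to 4 and at 2772, 1828, 3962 and 3541 CPM in Mono+MCTR3 mice. The Mono+MCTR3 mice thus included both the lowest and the highest level, and the log2 fold change was 0.20 (SE 0.18, adjusted p = 0.958). Il1r2 was at 2481, 3743, 3229 and 1938 CPM in Mono and 1930, 1631, 2636 and 2877 CPM in Mono+MCTR3 (log2 fold change -0.27, SE 0.19, adjusted p = 0.950). Il1rn was at 227, 323, 300 and 291 CPM in Mono and 283, 260, 254 and 301 CPM in Mono+MCTR3, so that the Mono+MCTR3 mice lay within the range of the Mono mice (log2 fold change -0.0024, SE 0.12). Il1a (log2 fold change -0.24, SE 0.50) and Il1rap (0.12, SE 0.27) rested on 109 and 191 UMIs.

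**Figure D4:**
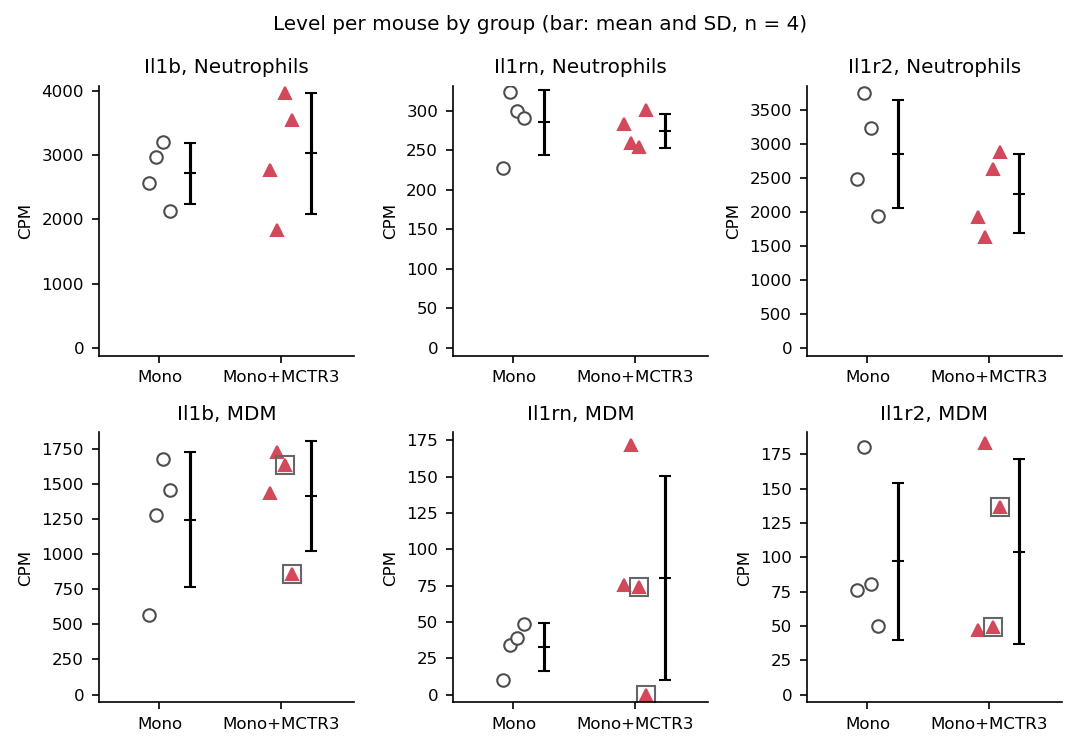
CPM of Il1b, Il1rn and Il1r2 in neutrophils (top) and MDM (bottom) of each mouse, with the mean and SD of each group (n = 4); squares mark the Mono+MCTR3 mice with 8 and 6 MDM. The groups overlap in all 6 panels, and in MDM the Il1rn levels of 3 Mono+MCTR3 mice lie above the highest Mono mouse at 48.3 CPM.

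The stages gave the same picture for all 3 abundant members, with 0 of 18 tests past the threshold (edgeR, adjusted) and 6 of 18 at an unadjusted p under 0.05. As background, 0.0457% of genes were called in early precursors, 0.0822% in stefin-high and 0.0783% in quiescent mature cells, and 0% in the other stages. Il1b had a positive fold change in 6 of 6 stages, from 0.23 (SE 0.12) in stefin-high to 0.64 (SE 0.26) in interferon response cells. Its unadjusted p was 0.0036 in secondary granule, 0.0280 in quiescent mature, 0.0251 in interferon response and 0.0272 in inflammatory cells (adjusted p = 0.761 to 1.00). With a higher level in Mono+MCTR3, an unadjusted p under 0.05 was found for 1.88%, 3.01%, 2.08% and 2.72% of the genes tested in these 4 stages. In secondary granule cells Il1b was at 378, 387, 425 and 483 CPM in Mono and at 683, 482, 641 and 465 CPM in Mono+MCTR3, so 2 of the Mono+MCTR3 mice lay within the upper end of the Mono range. Il1r2 in early precursors was at 409, 584, 295 and 395 CPM in Mono and 231, 279, 291 and 168 CPM in Mono+MCTR3 mice. The groups did not overlap there, as was so for 3.48% of the genes tested in that stage, and 2.84% were lower in Mono+MCTR3 at an unadjusted p under 0.05 (edgeR log2 fold change -0.76, SE 0.21, adjusted p = 0.591). Il1rn in inflammatory cells was at 534, 534, 666 and 706 CPM in Mono and at 1108, 1939, 705 and 513 CPM in Mono+MCTR3 (log2 fold change 0.90, SE 0.34, adjusted p = 0.929). That value was 0.36 without Mono+MCTR3 mouse 2, which had the highest level.

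In MDM, 0 of the 3 members tested passed (edgeR), as did 0% of 2924 genes. Of these genes 175 had an unadjusted p under 0.05, and 12 passed with the likelihood ratio test and 6 with DESeq2. None of the 3 members passed the likelihood ratio test, and DESeq2 gave no adjusted p for Il1rn and Il1r2. Il1rn was at 9.94, 33.9, 38.7 and 48.3 CPM in Mono and at 75.2, 172, 74.3 and 0 CPM in Mono+MCTR3, from 3, 6, 11 and 25 against 16, 102, 3 and 0 UMIs. The mouse at 0 had 6 MDM and the one at 74.3 had 8. The log2 fold change was 1.67 (SE 0.52, adjusted p = 0.633), with an unadjusted p under 0.05 that 2.36% of genes also had with a higher level in Mono+MCTR3. It was 1.92 with only the 6 mice that had at least 10 MDM, a choice made after the data were seen, and 0.70 without Mono+MCTR3 mouse 2, which held 102 of the 121 UMIs of its group. Il1b was at 567, 1281, 1676 and 1461 CPM in Mono and 1433, 1731, 1635 and 859 CPM in Mono+MCTR3, and the groups overlapped (log2 fold change 0.14, SE 0.31). Il1r2 (0.42, SE 0.46) overlapped as well.

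**Figure D5:**
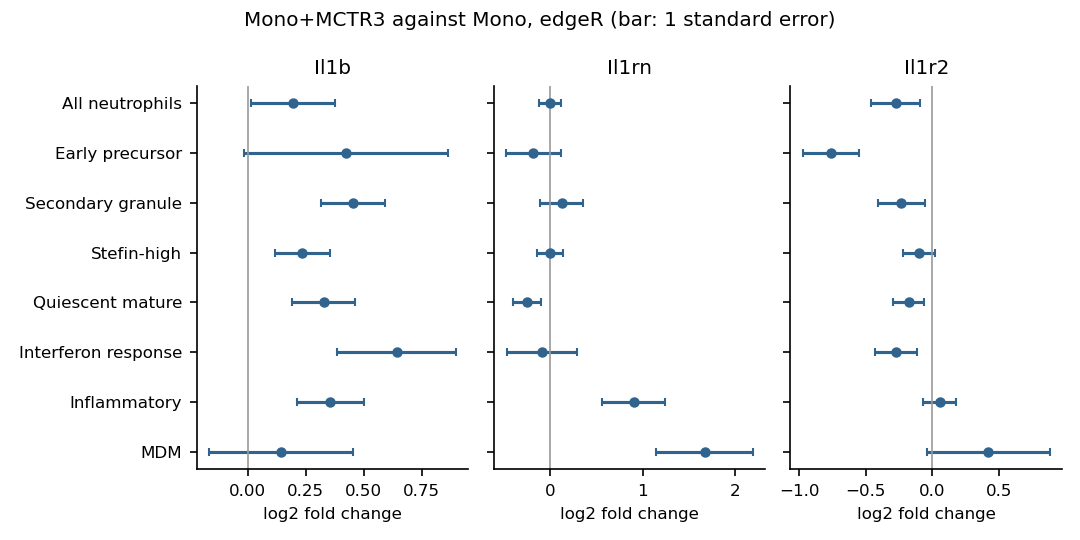
Log2 fold change of Il1b, Il1rn and Il1r2 in Mono+MCTR3 against Mono (edgeR, bars 1 standard error) in all neutrophils, each stage and MDM; each panel has its own scale. Il1b lies above 0 throughout, at 0.20 in all neutrophils, and Il1rn is highest in MDM at 1.67; none passed the adjusted threshold.

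The other genes of the pathway, 36 receptors, relatives, adaptors and inflammasome and NF-kappaB genes, gave no call either. In neutrophils 21 could be tested and 0 passed (edgeR), 5 had positive and 16 negative fold changes with a median of -0.12, against a median of 0.0094 over all 5485 genes. Of the 21, 1 had an unadjusted p under 0.05, Ikbkb, which encodes a kinase that releases NF-kappaB (log2 fold change -0.33, SE 0.15, adjusted p = 0.950). The members of the list with the highest levels in neutrophils were Nfkbia, the NF-kappaB inhibitor gene (1329 ± 324 CPM), Il1f9 (332 ± 92.5), and Nfkbiz, a gene of a nuclear IkappaB protein (214 ± 68.7; SD, n = 8 each). Their log2 fold changes were -0.12 (SE 0.21), -0.04 (SE 0.21) and -0.11 (SE 0.27). In MDM 11 could be tested, 0 passed and 0 had an unadjusted p under 0.05, with a median of -0.25 against -0.0034 over all 2924 genes.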

How the data were processed

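The authors deposited 2 tables of UMI counts, 1 per group, made with Cell Ranger (STAR, GRCm38) and its aggregation step, run within each group, so that any levelling of depth was within and not between groups. Cell Ranger, GRCm38 and edgeR are listed in the processing notes of the submitters, and their versions were not found in the sources used. The counting strand is not stated, and Il1bos overlaps Il1b by 1243 bases on the opposite strand. Mice were told apart by barcode suffix, which does not say which labelled sample each was.

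The members and gene lists were chosen with earlier results of these data known. Cells were log normalised (scale factor 1000) and clustered (Seurat 5.3.0, R 4.3.3; resolution 0.5, the first 20 components of 2000 variable genes) and named from marker lists (at least 3 markers, each in 10% of cells). Scrublet (scanpy 1.11.5) called 52 of 10256 cells (0.507%) doublets, which were kept. For each mouse and class the UMIs were added up and compared with edgeR 4.0.16 (TMM, filterByExpr, glmQLFTest, Benjamini-Hochberg), with a likelihood ratio test and DESeq2 1.42.0 as alternatives. A standard error is the absolute log2 fold change over the square root of F. Single values were compared with two-sided exact permutation tests in scipy 1.17.1, over mice or as sign flips within mice. Classes needed 10 cells per mouse, and co-detection 5 cells with and 5 without Il1b. Thinned shares in co-detection are expected values over draws; this was settled after single draws were seen to differ. Tested on simulated data, edgeR recovered 74.7% of changes of 1 and 99.1% of changes of 2 on the log2 scale among 5485 genes at the depth of neutrophils, and 40.4% and 97.3% among 2924 at that of MDM. The genes named are the 5 members, Il1r1, the 3 pathway genes highest in neutrophils, any with a call, and the 5 genes most like Il1b, Il1rn and Il1r2; Ikbkb, S100a8 and Il1bos were named after their values were seen. The names Il1f5, Il1f6, Il1f8 and Il1f9 are the tables' older symbols of the interleukin-36 genes. Coordinates are from GENCODE vM21.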

Additional observations from a re-analysis of the deposited data

Results flagged for a closer look

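In 6 of 88 groups of 4 mice tested, 1 mouse stood apart from the other 3 by Dixon's criterion, which flags about 1 in 20 groups by chance. Il1a in neutrophils was at 11.8 CPM in Mono mouse 4 and at 5.96 to 6.66 CPM in the other Mono mice. Il1a in MDM was at 3.37 CPM in Mono+MCTR3 mouse 2 and at 0 in the others, and Il1rap in MDM was at 4.70 CPM in Mono+MCTR3 mouse 1 and at 0 in the others. With the others at 0 the criterion flags any value above 0. These levels were near the floor, as MDM of all mice held 12 UMIs of Il1a and 7 of Il1rap. Il1b in inflammatory neutrophils was at 8756 CPM in Mono+MCTR3 mouse 3, against 6502 to 6823 CPM. Il1rn in quiescent mature neutrophils was at 236 CPM in Mono+MCTR3 mouse 2, against 316 to 323 CPM. The ratio of Il1b to Il1rn in interferon response neutrophils was 7.35 in Mono+MCTR3 mouse 4 and 13.5 to 15.2 in the others. Of 12 tests of whether the group difference of a member differed between classes or stages, 0 passed after adjustment (exact permutation tests, lowest p = 0.0286, adjusted p = 0.343).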

How the results depend on the processing

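The excess of Il1b over Il1r2 in Mono+MCTR3 neutrophils kept its direction under each alternative run, and without 1 mouse it lay between 0.34 and 0.51. That of Il1b to Il1rn lay between -0.024 and 0.36 and turned without Mono+MCTR3 mouse 3. No member passed in neutrophils under any alternative, and without a filter on low counts 1 member passed in MDM (Il1rn) and 2 tests in the stages (Il1r2 in early precursors, Il1rn in inflammatory cells). Of the 30 pairs of neighbouring levels 10 passed. With no upper limit on genes 6 of 24 passed, with 10 components 5 of 18 and at resolution 0.3 0 of 15. Fewer pairs were compared under these alternatives because fewer stages were found. Why fewer of them passed was not tested. Without 1 mouse 0 to 10 passed, 10 without Mono+MCTR3 mouse 2 or 4 and 0 without any other. These counts are bound by the test, since 7 mice cannot give an exact p under 0.0156. The differences that had passed kept their direction, and Il1b from stefin-high to quiescent mature cells lay between 0.93 and 1.03. Co-detection with Il1r2 lay between 3.32 and 4.81 points without 1 mouse, lost its call without 6 of the 8 in turn, and was 1.58 in 1 random draw, an alternative chosen after seeing the data. Co-detection with Il1rn turned to 0.48 without thinning, 2.22 at 1500 UMIs and 0.38 at resolution 0.3, and without 1 mouse lay between -2.58 (adjusted exact p = 0.0469, without Mono+MCTR3 mouse 1) and -1.08. At 1500 UMIs the inflammatory stage entered this mean from 1 mouse, against 8 mice at 1000 UMIs. The cause of the turns was not tested. With 1 mouse left out, added after seeing the data, Il1b to Il1r2 was -0.053 to 0.046 from stefin-high to quiescent mature and -0.29 to 0.0059 from quiescent mature to interferon response cells.

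Fold changes near 0 turned as follows. Il1rn in neutrophils was 0.0024 without the filter, 0.033 at 10% mitochondrial UMIs, 0.066 with no upper limit on genes, 0.065 at resolutions 0.3 and 1.0, 0.068 and 0.034 with 10 and 30 components and 0.034 without doublets. Il1rn in stefin-high cells was 0.029, 0.057 and 0.11 under the first 3 of these, 0.021 at resolution 1.0, 0.049 and 0.057 with 10 and 30 components, 0.038 without doublets and 0.016 with the family genes in the clustering. Il1rn in secondary granule cells was -0.0030 with no upper limit, -0.0038 with 10 components and -0.13 without doublets. Il1r2 in inflammatory cells was -0.0090 with library totals, -0.0019 with no upper limit, -0.099 at resolution 0.3 and -0.029 and -0.041 with 10 and 30 components. In MDM, 10% mitochondrial UMIs gave -0.57 for Il1r2 and -0.36 for Il1b, and no upper limit -0.23 and -0.13. Leaving out 1 mouse gave -0.16 to 0.26 for Il1rap, -0.070 to 0.062 for Il1rn and -0.52 to 0.12 for Il1a in neutrophils, and -0.51 to 0.79 for Il1r2 and -0.11 to 0.30 for Il1b in MDM. It gave for Il1rn -0.31 to 0.052 in early precursors, -0.040 to 0.29 in secondary granule, -0.11 to 0.13 in stefin-high and -0.35 to 0.25 in interferon response cells, for Il1b -0.10 to 0.72 in early precursors, and for Il1r2 -0.20 to 0.0037 in stefin-high and -0.032 to 0.13 in inflammatory cells.

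Classes and stages were compared within mice, whereas the groups hold different mice and were compared without pairing. The barcode suffixes are not tied to labelled samples. Stages missing under an alternative, most often the early precursor stage, gave no value. Il1a, Il1rap and Il1r1 were limited by their UMIs, and MDM by 8 and 6 cells in a pair of mice.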
